A study of Rattus norvegicus with 48 samples.

Results

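The ethanol by enrichment interaction asked whether social enrichment was followed by another change in ventral striatum microRNAs after prenatal ethanol than after prenatal saline. It was measured in the 24 ventral striatum libraries of 48 small RNA libraries, all those whose label names that region, and the other 24 libraries came from the amygdala. The rats were Long Evans rats taken at postnatal day 42, of both sexes, whose dams had received injections of ethanol or of an equal volume of saline in mid-gestation. After weaning, a rat lived either with littermates of its own sex (non-enriched) or with unfamiliar rats of the same age and sex from an untreated dam (socially enriched). The 4 groups were thus ethanol enriched, ethanol non-enriched, saline enriched and saline non-enriched, with 6 libraries each, 3 of them female pools (called F1 to F3) and 3 male pools (called M1 to M3). Every library was made from RNA pooled from several rats of one sex and group, so rats within a pool cannot be told apart, and the litters behind a pool are not named in the labels. All rats, controls included, had undergone a social behavior test before the tissue was taken, and the saline dams had been injected as the ethanol dams were. For each name the interaction was the enriched minus non-enriched difference of log2(RPM + 1) in ethanol-exposed rats minus the same difference in saline rats, where RPM is the deposited unit, reads scaled to a fixed total in each library. A positive value means that enriched libraries stood higher relative to non-enriched ones after ethanol than after saline, whatever the direction within either group.

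MicroRNAs are short RNAs cut from hairpin precursors. They guide Argonaute proteins to messenger RNAs that pair with their seed, the bases near the 5′ end, and lower the output of those messengers. The ventral striatum, which contains the nucleus accumbens, takes part in reward and social motivation, and most of its neurons are medium spiny neurons. The labelled tissue was checked against microRNAs of neurons: miR-9a-5p averaged 31430 RPM, miR-128-3p 4615 RPM and miR-124-3p 2201 RPM over the 24 libraries. Of microRNAs known from liver and red blood cells, mir-122 averaged 1.20 RPM and mir-451 33.4 RPM, while miR-192-5p of the liver list averaged 4157 RPM. These lists do not separate the ventral striatum from other brain regions.

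The names around which the results turn are shown with their mature sequences from RefSeq (build GRCr8), 5′ to 3′, with the seed (bases 2 to 8) in capitals. A sequence was found for 35 of the 38 mature names looked up, and miR-200a-3p, miR-200b-3p and miR-429 were without one. The first set holds mature names of the mir-183 cluster and mir-8 family. The largest positive interaction over all tested names, 2.98, was that of the family member miR-200a-3p. Of the names shown, miR-96-5p averaged 2.93 RPM and miR-183-5p 0.0018 RPM, and miR-200c-3p did not enter the test. Here miR-182 (chr4:59752249-59752273), miR-96-5p (chr4:59755901-59755923) and miR-183-5p (chr4:59756106-59756127) lay on the minus strand, and miR-3553 (chr4:59756105-59756127) lay opposite miR-183-5p on the plus strand, sharing 22 bases with it.
miR-182: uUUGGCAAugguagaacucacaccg
miR-96-5p: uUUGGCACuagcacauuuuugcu
miR-183-5p: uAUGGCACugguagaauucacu
miR-3553: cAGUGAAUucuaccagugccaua
miR-141-3p: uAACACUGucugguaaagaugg
miR-200c-3p: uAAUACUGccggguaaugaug
The second set holds mature names with negative interactions, shown because they were among those with the smallest p-values in that direction.
miR-542-5p: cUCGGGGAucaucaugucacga
miR-145-5p: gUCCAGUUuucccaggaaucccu
miR-382-3p: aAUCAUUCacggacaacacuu
miR-3592: aAGUGUUGuccgugaaugauu
miR-3068-5p: uUGGAGUUcaugcaaguucuaacca
let-7c-2-3p: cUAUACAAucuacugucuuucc
miR-369-3p: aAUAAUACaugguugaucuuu
miR-532-3p: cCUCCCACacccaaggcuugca
miR-483-3p: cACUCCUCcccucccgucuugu
No seed occurred in more than 1 name of the second set. The names miR-382-3p and miR-3592 (both chr6:134569992-134570012, on opposite strands) had the same value in every library. They were counted as 1 only when names were chosen. Each is counted separately among the 933 names tested and the 24 with an unadjusted p under 0.05. How reads matching opposite strands were divided is not given in the sources used here.

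No microRNA showed an ethanol by enrichment interaction that passed correction in the ventral striatum. Of 933 mature and precursor names tested with limma, 0 had a Benjamini-Hochberg adjusted p under 0.05 (0.0%), and the smallest adjusted p was 1. At an unadjusted p under 0.05 there were 24 names (2.57%), 9 with a positive and 15 with a negative interaction. Evenly spread p-values, as without any interaction, would put 46.65 names there. Of these 24 names, 11 averaged under 10 RPM and 9 had over 3 reads in fewer than 6 libraries. The count ran from 11 without saline enriched F1 to 38 without ethanol enriched F2. All values given below for single microRNAs are therefore measurements that did not pass correction. In bulk tissue, fewer cells of a type and less RNA per cell cannot be told apart.

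The housing difference was small for most abundant microRNAs in both prenatal groups. Across the 596 names of at least 10 RPM, the median size of the enriched minus non-enriched difference was 0.09 on the log2 scale in ethanol-exposed rats and 0.11 in saline rats, and that of the interaction was 0.12. The 95% interval of the interaction lay within 1 log2 unit on either side of 0 for 466 of these 596 names, and for 173 of the 184 names of at least 1000 RPM. The intervals of the 2 most abundant names also lay within 1 log2 unit on either side of 0. For miR-181a-5p, which averaged 171592 RPM, the interaction was 0.04 (95% interval -0.32 to 0.40). For miR-127-3p of the imprinted Dlk1-Dio3 cluster, which averaged 143865 RPM, it was -0.05 (95% interval -0.51 to 0.42). Both intervals lie inside a 2-fold change of the housing ratio in either direction, while the intervals of the other 130 of the 596 names reached past a 2-fold change on at least 1 side.

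The housing differences of the 2 prenatal groups come from separate libraries. Over the 184 names of at least 1000 RPM they had a Pearson correlation of 0.55 (Spearman 0.42), and over the 596 names of at least 10 RPM one of -0.16 (Spearman 0.21). These are descriptions across names, which are not independent of one another, and many share a cluster or a seed. In the plot of the housing differences, members of the mir-183 cluster and mir-8 family sit apart from the other names.

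**Figure D1:**
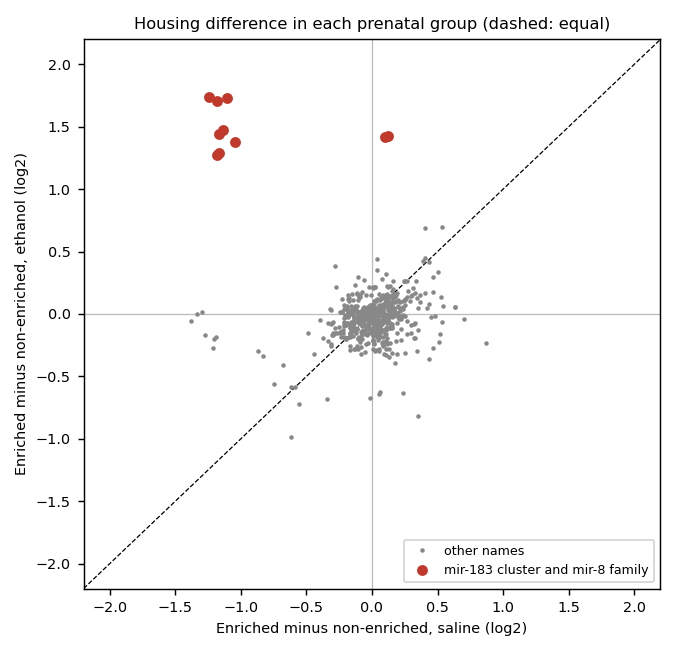
Enriched minus non-enriched difference in saline rats (horizontal axis, log2) against the same difference in ethanol-exposed rats (vertical axis, log2) for the 596 names averaging at least 10 RPM, with the mir-183 cluster and mir-8 family in red and the line of equal differences dashed. Of the 10 red points, 8 lie between -1.24 and -1.05 on the horizontal and between 1.27 and 1.74 on the vertical axis, and mir-141 and miR-141-3p lie near 0 on the horizontal axis.

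The mir-183 cluster (miR-183, miR-96 and miR-182) and the mir-8 family (miR-200a, miR-200b, miR-200c, miR-141 and miR-429) are known from epithelia and sensory cells, and the mir-8 family restrains the transcription factors that drive epithelial cells toward a mesenchymal state. In the ventral striatum the highest levels of most members were found in some ethanol enriched and some saline non-enriched libraries, and single libraries of the other groups were high too, such as ethanol non-enriched M3 for miR-182 (879 RPM) and saline enriched F3 for miR-141-3p (244 RPM). Of 18 tested names of the list, 5 had an unadjusted p under 0.05 with a positive interaction and 0 with a negative one, beside 24 of 933 names (2.57%) in either direction over all names, and 0 passed correction. The 5 were miR-182, mir-182, mir-183, miR-3553 and mir-3553, all at the mir-183 cluster. No name of the mir-8 family was among them. Over the 18 names the median interaction was 2.23, beside -0.02 over all 933 names, and the values ran from 0.00 to 2.98. Mature and precursor names count the same reads, so these 18 names are not 18 measurements, and miR-3553 is annotated opposite miR-183-5p. The study had already reported members of the cluster and of the family from these same libraries. The counts and the median of this list are therefore not independent evidence.

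In ethanol enriched libraries miR-182 ran from 97.2 to 2438 RPM with a median of 774 RPM. In ethanol non-enriched libraries it ran from 84.1 to 879 RPM with a median of 143 RPM. Saline enriched libraries lay between 93.6 and 306 RPM (median 175 RPM), and saline non-enriched ones between 124 and 1216 RPM (median 536 RPM). The 2 groups of each prenatal treatment overlapped, and the low ends of all 4 groups lay close together, so the differences came from the high libraries. The housing difference was 1.27 ± 0.80 (SE) in ethanol-exposed rats and -1.18 ± 0.80 in saline rats, which gives an interaction of 2.45 ± 1.13, a 5.48-fold ratio of the housing ratios (exact permutation test within sex, two-sided, p = 0.0428; limma adjusted p = 1). Leaving out single libraries moved the interaction between 1.81 and 3.02.

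The name miR-3553 showed the same order of groups, with medians of 182 RPM in ethanol enriched, 27.2 RPM in ethanol non-enriched, 38.6 RPM in saline enriched and 120 RPM in saline non-enriched libraries. Its highest libraries reached 559, 146, 75.6 and 217 RPM in the same order, and the groups overlapped. The interaction was 2.61 ± 1.20 (exact permutation p = 0.0396; limma adjusted p = 1). On the opposite strand, miR-183-5p averaged 0.0018 RPM while miR-3553 averaged 108 RPM, and the precursor mir-183 averaged 14.03 RPM beside 86.2 RPM for mir-3553. Reads of miR-183-5p and miR-3553 therefore cannot be told apart here.

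For miR-429 the medians were 17.9 RPM in ethanol enriched, 2.45 RPM in ethanol non-enriched, 2.18 RPM in saline enriched and 10.3 RPM in saline non-enriched libraries. The highest libraries held 71.9, 11.3, 12.2 and 19.1 RPM in that order, and libraries at 0 occurred in the first 3 of these groups. The interaction was 2.88 ± 1.41 (exact permutation p = 0.0485; limma adjusted p = 1), and it was 1.41 with a pseudocount of 10 RPM in place of 1 RPM. For miR-200a-3p it was 2.98 ± 1.69, with medians of 28.6, 2.49, 3.69 and 16.2 RPM, and the exact permutation p was 0.0984 on the log2 scale and 0.0304 on unlogged RPM. With a pseudocount of 10 RPM its interaction was 1.80. Only miR-141-3p and its precursor lacked the negative housing difference in saline rats among names of the list over 10 RPM: miR-141-3p had 1.42 in ethanol-exposed and 0.12 in saline rats, an interaction of 1.30 ± 0.99.

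The same libraries were high for members encoded at different loci. The mir-183 cluster and miR-141-3p lie on chromosome 4, and the hairpin of miR-200b-3p lies on chromosome 5. Of the 6 libraries with the most miR-182, all 6 were among the 6 highest for miR-96-5p, and 5 were among the 6 highest for each of miR-3553, miR-141-3p, miR-200a-3p, miR-200b-3p and miR-429. Outside the list, 3 of them were among the 6 highest for miR-204-5p and 2 among the 6 highest for miR-9a-5p. The 6 libraries with the most miR-182 were ethanol enriched F3, M2 and F1, saline non-enriched F3 and M3, and ethanol non-enriched M3. The summed mature values of the list ran from 154 to 3528 RPM in ethanol enriched, 125 to 1159 RPM in ethanol non-enriched, 126 to 640 RPM in saline enriched and 159 to 1631 RPM in saline non-enriched libraries. Choroid plexus and ciliated cell names, another epithelial list, summed to between 4674 and 8991, 6560 and 9096, 4582 and 10116, and 5805 and 12479 RPM in the same order. The part of cell types in the interaction was not tested.

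**Figure D2:**
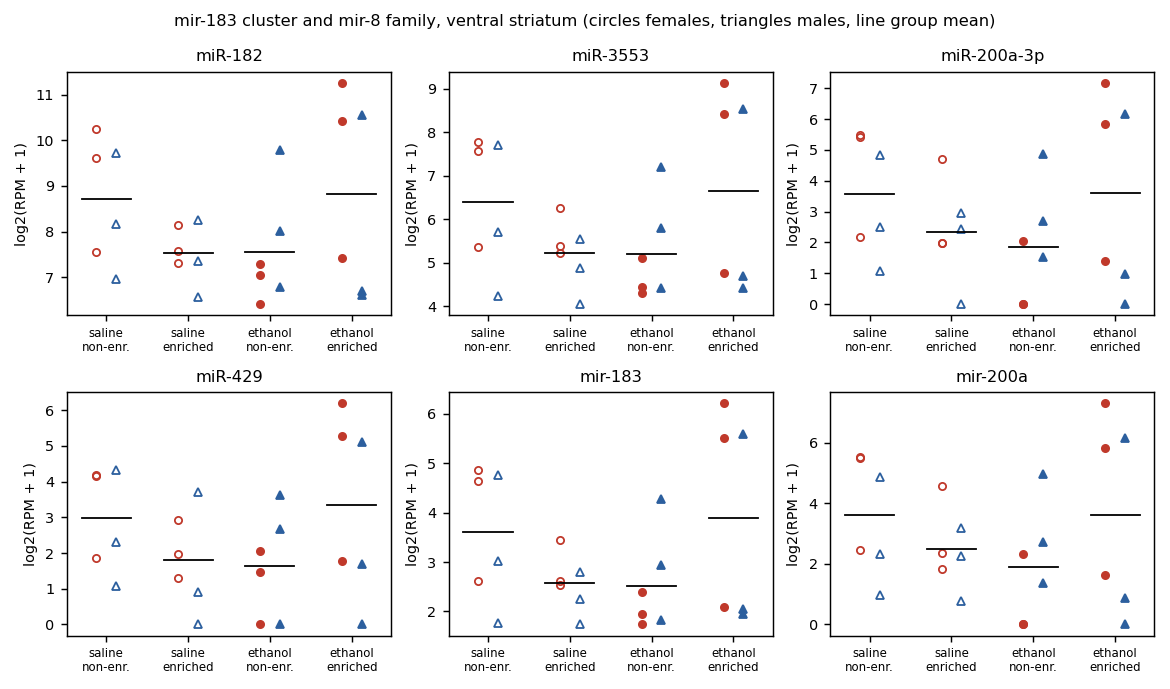
Level of 6 names of the mir-183 cluster and mir-8 family in each ventral striatum library as log2(RPM + 1), by group, with circles for females, triangles for males and a line at the group mean. In each panel a few ethanol enriched and saline non-enriched libraries lie high while the lowest libraries of the 4 groups lie close together.

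The interaction of most of these names had a larger value in females, and no such difference passed correction. For miR-182 it was 4.26 in females and 0.65 in males (difference, limma adjusted p = 1), and for miR-429 it was 4.58 and 1.19 (limma adjusted p = 1). Over the 18 names the median was 3.76 in females and 0.76 in males, beside -0.03 and -0.04 over all names. Each sex has 3 libraries per group.

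The mir-322 to mir-450 cluster on the X chromosome encodes miR-322, miR-503, miR-351, miR-542 and miR-450, and miR-322 and miR-503 are known as brakes on the cell cycle. Of its 21 tested names 19 had a negative interaction, beside 529 of 933 over all names. At an unadjusted p under 0.05 there were 3, all negative, beside 2.57% of all names in either direction, and 0 passed correction. The median interaction was -0.21, beside -0.02 over all names. Several names are precursor copies of one mature microRNA. The most abundant member, miR-351-5p at 3498 RPM, had an interaction of 0.00 ± 0.14.

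For miR-542-5p the ethanol enriched libraries ran from 5.89 to 19.2 RPM with a median of 16.3 RPM, and the ethanol non-enriched ones from 10.7 to 30.4 RPM with a median of 23.4 RPM. Saline enriched libraries ran from 14.3 to 27.4 RPM (median 20.6 RPM) and saline non-enriched ones from 12.5 to 25.7 RPM (median 16.6 RPM). The ordering of housing was thus opposite in the 2 prenatal groups, with overlap in both. The interaction was -0.87 ± 0.39 (exact permutation p = 0.0280; limma adjusted p = 1), from a housing difference of -0.63 in ethanol-exposed and 0.23 in saline rats. For the precursor mir-450b-1 the interaction was -0.74 ± 0.34 (exact permutation p = 0.0509), and nearly all of it lay in the saline rats, whose difference was 0.70 against -0.04 after ethanol. For mir-542-1 it was -0.64 ± 0.30 (exact permutation p = 0.0566).

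The microRNA miR-145-5p, known from vascular smooth muscle and pericytes, was higher in saline enriched libraries than in the other groups by its median. It ran from 78.8 to 174 RPM (median 129 RPM) there and from 64.3 to 104 RPM (median 84.8 RPM) in saline non-enriched libraries. The ethanol enriched libraries had a median of 94.3 RPM and the ethanol non-enriched ones one of 92.4 RPM. The interaction was -0.60 ± 0.28 (exact permutation p = 0.0545; limma adjusted p = 1), with housing differences of -0.06 after ethanol and 0.54 after saline. Leaving out single libraries moved it between -0.74 and -0.47. The clustered partner miR-143-3p, at 30634 RPM, had an interaction of -0.16 ± 0.24. In saline enriched libraries miR-143-3p reached 63564 RPM with a median of 31794 RPM. Mature vascular and mesenchymal names summed to 68624 RPM in saline enriched F3, beside 43545 RPM in saline enriched M2, the next highest library. Of the 17 vascular and mesenchymal names tested, 1 had an unadjusted p under 0.05, which was miR-145-5p, beside 2.57% of all names, and the median was -0.15.

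Further names of at least 10 RPM were chosen by their p-value. The precursor mir-877 had medians of 59.95 RPM in ethanol enriched, 49.3 RPM in ethanol non-enriched, 53.2 RPM in saline enriched and 59.2 RPM in saline non-enriched libraries, and an interaction of 0.49 ± 0.22 (exact permutation p = 0.0203; limma adjusted p = 1). The precursor mir-673 had an interaction of -0.42 ± 0.19 (exact permutation p = 0.0266), and its medians were 290, 327, 341 and 278 RPM in the same order. Both names had ordering of housing that differed between the prenatal groups, and in both the groups overlapped. The interaction of miR-3068-5p was -0.34 ± 0.16 (exact permutation p = 0.0464), that of mir-17-2, a precursor of the proliferation-linked mir-17 family, 0.67 ± 0.34 (exact permutation p = 0.0421), and that of let-7c-2-3p -1.16 ± 0.56 (exact permutation p = 0.0427). For miR-382-3p, which shares its values with miR-3592, it was -0.58 ± 0.26 (exact permutation p = 0.0791), with -1.22 in females and 0.06 in males. The last names of this choice, miR-369-3p and mir-879, had -0.33 ± 0.18 and -0.35 ± 0.18. In all, 47 names were tested in this way, 46 of them with distinct values. No adjustment over them is given because most were chosen for a small p.

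**Figure D3:**
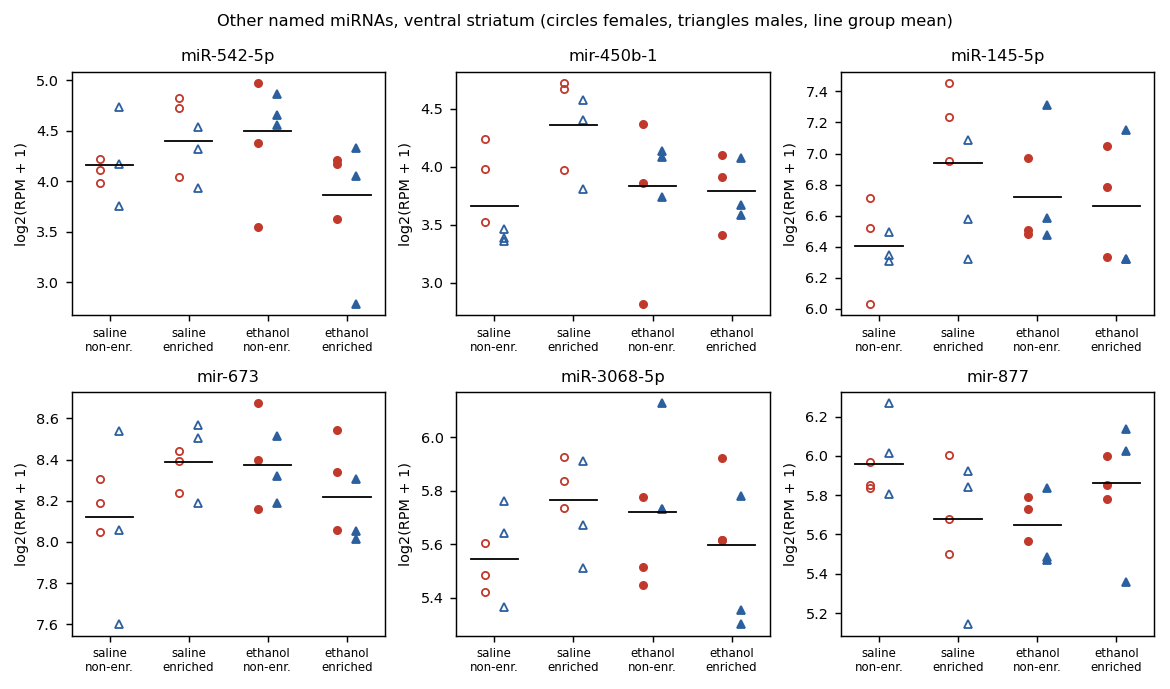
Level of 6 further names in each ventral striatum library as log2(RPM + 1), by group, with circles for females, triangles for males and a line at the group mean. For miR-542-5p, mir-673 and miR-3068-5p the saline enriched mean lies above the saline non-enriched mean and the ethanol enriched mean below the ethanol non-enriched mean, mir-877 shows the opposite order, and in every panel the groups overlap.

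Among names under 10 RPM, 4 had the smallest p-values, and each rests on few reads. For miR-483-3p, made from an intron of Igf2 that is active in choroid plexus and meninges, the highest library of each group held 1.13 RPM in ethanol enriched, 4.66 RPM in ethanol non-enriched, 13.3 RPM in saline enriched and 0.87 RPM in saline non-enriched rats. Over 3 reads were present in 1 ethanol non-enriched and 1 saline enriched library and in no other. The interaction was -2.18 ± 0.61 (exact permutation p = 0.0041; limma adjusted p = 1). Its precursor mir-483 had -1.88 ± 0.68 (exact permutation p = 0.0066). The precursors mir-3577 and mir-3084c had 1.57 ± 0.48 (exact permutation p = 0.0036) and 0.93 ± 0.29 (exact permutation p = 0.0099), and mir-3084c had over 3 reads in no library. A fold against so few reads depends on the 1 RPM added before the logarithm.

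No neuronal microRNA passed the test. Of 46 tested names of neuron-enriched microRNAs, 0 had an unadjusted limma p under 0.05 or an adjusted p under 0.05, and the values ran from -0.40 to 0.21 with a median of -0.13. For miR-9a-5p, which supports neuronal differentiation, the medians were 29907 RPM in ethanol enriched, 34051 RPM in ethanol non-enriched, 32802 RPM in saline enriched and 29368 RPM in saline non-enriched libraries. The interaction was -0.23 ± 0.21 (95% interval -0.67 to 0.21). For miR-129-2-3p it was -0.16 ± 0.13 (95% interval -0.43 to 0.10).

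In the other lists the counts at an unadjusted p under 0.05 are read beside 2.57% of all names, and counts of negative values beside 529 of 933. They were 0 of 14 for the miR-181 family (median 0.02), 0 of 10 for oligodendrocyte names (median 0.10), 0 of 14 for microglia and immune names (median -0.09), 0 of 20 for choroid plexus and ciliated cell names (median -0.03), 0 of 12 for muscle names (median 0.00) and 0 of 6 for red blood cell names (median -0.22). In the let-7 family 1 of 33 had one, let-7a-2-3p at -1.02 ± 0.45, and in the imprinted Dlk1-Dio3 cluster 1 of 121, the name shared by miR-382-3p and miR-3592. In the X-linked Clcn5 cluster all 12 tested names were negative with a median of -0.43. Of them, 3 averaged at least 10 RPM, and mature and precursor names count the same reads. The most abundant, miR-532-5p at 194 RPM, had -0.21 ± 0.19. An unadjusted limma p under 0.05 was found for 1 name of the cluster, miR-532-3p at -0.95 ± 0.38. Its medians were 4.87, 8.09, 7.73 and 6.09 RPM in the order used above. The liver list had 1 of 10, mir-122, at 1.06 ± 0.44 and 1.20 RPM. With a pseudocount of 10 RPM the values were -0.23 for let-7a-2-3p, -0.41 for miR-532-3p and 0.17 for mir-122, and with one of 0.1 RPM they were -2.15 for let-7a-2-3p and 3.48 for mir-122. In no list did a name pass correction. Mostly negative values were also found for microglia and immune (13 of 14), neuronal (36 of 46), red blood cell (5 of 6) and vascular and mesenchymal names (12 of 17). Negative were 77 of 121 Dlk1-Dio3, 18 of 33 let-7, 7 of 12 muscle and 10 of 20 choroid plexus and ciliated cell names. So were 6 of 14 miR-181, 4 of 10 oligodendrocyte and 2 of 10 liver names. The list that the study chose on these same libraries had 15 of 55 at an unadjusted p under 0.05 with a median of 0.00, which is not independent evidence.

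**Figure D4:**
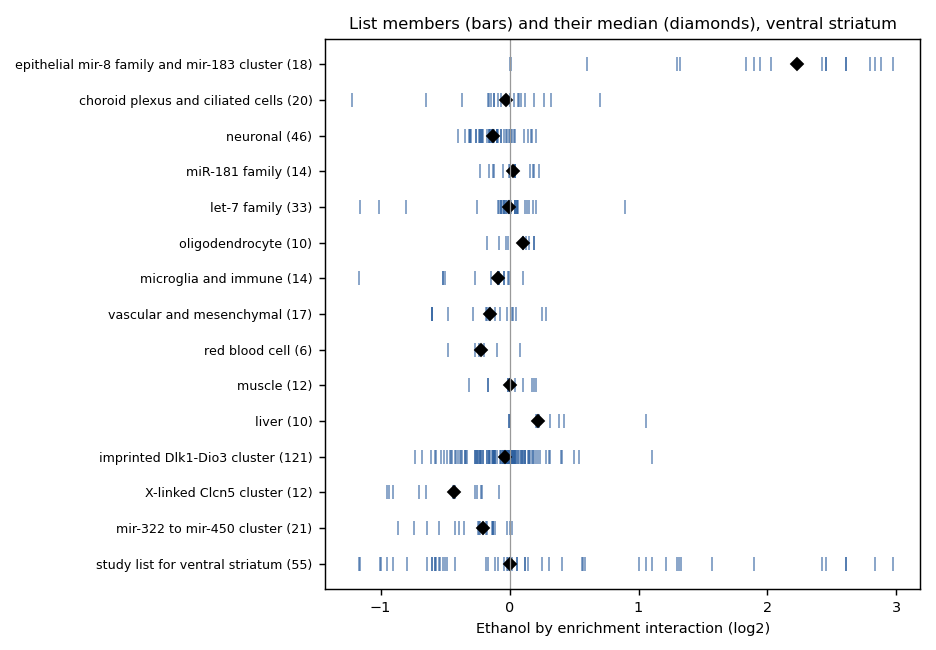
Ethanol by enrichment interaction (horizontal axis, log2) of each tested name of 15 lists in the ventral striatum, with 1 bar per name, a diamond at the list's median and the number of names in parentheses. The mir-8 family and mir-183 cluster has a median of 2.23, and the other medians lie between -0.43 and 0.22.

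The interaction in females was set against that in males across all names. An unadjusted p under 0.05 was found for 26 of 933 names (2.79%), and 1 passed correction: the precursor mir-6325 (limma adjusted p = 0.0301), with an interaction of -1.78 in females and 2.02 in males. It averaged 0.69 RPM and had over 3 reads in 0 of 24 libraries. The call was lost with a pseudocount of 10 RPM, on unlogged RPM, without moderation and with array weights, and without any 1 of 18 of the 24 libraries.

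The interaction in the ventral striatum was compared with the same interaction in the amygdala. The amygdala had 35 of 910 names at an unadjusted p under 0.05 (3.85%) and 0 that passed correction. For the difference between the regions, 31 of 901 names had an unadjusted p under 0.05 (3.44%) and 0 passed correction (limma, smallest adjusted p = 0.924). Both regions came from the same rats, and this fit treats their libraries as separate. With libraries of consecutive codes as a random block the counts were 32 and 0. For miR-182 the interaction was -0.27 ± 1.16 in the amygdala, and the difference between regions was 2.73 ± 1.64 (limma adjusted p = 1). For miR-3553, miR-429 and miR-200a-3p the amygdala values were 1.93 ± 1.26, 1.44 ± 1.15 and 2.13 ± 1.41. They were positive as in the ventral striatum, but none had an unadjusted limma p under 0.05 in the amygdala. For mir-450b-1 the amygdala value was -0.74 ± 0.31, and for miR-542-5p it was -0.08 ± 0.37. No named microRNA had an interaction that differed between the regions after correction. Without correction, the limma p of that difference was under 0.05 for mir-3577, miR-3068-5p and miR-9a-5p. Their values were 1.57, -0.34 and -0.23 in the ventral striatum and -0.21, 0.39 and 0.31 in the amygdala. Of these, mir-3577 averaged 1.38 RPM in the ventral striatum.

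**Figure D5:**
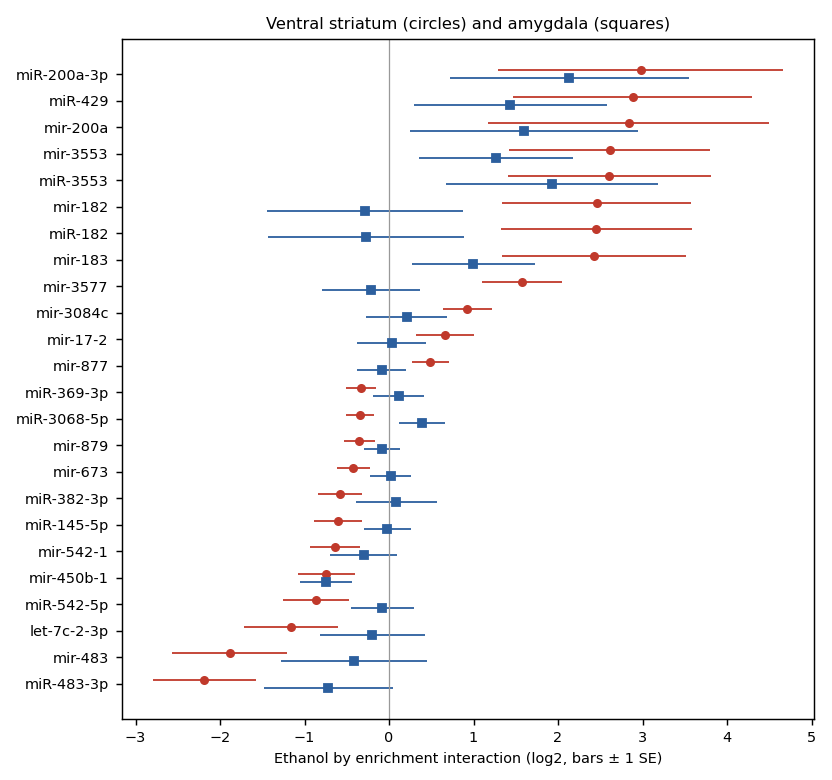
Interaction in the ventral striatum (circles) and in the amygdala (squares) for the names chosen by their p-value in the ventral striatum, as log2 values with bars of 1 standard error. The bars of the 2 regions overlap for mir-450b-1, and miR-182 lies at 2.45 in the ventral striatum and at -0.27 in the amygdala.

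Mature reads numbered 739464 to 1370413 per ventral striatum library (median 1031166), and the 10 most abundant mature names took 56.2% to 63.6% of them. Group medians of mature reads lay between 996265 (ethanol enriched) and 1162765 (saline enriched). A floor of 3 reads corresponds to 2.19 to 4.06 RPM for mature and 1.90 to 3.43 RPM for precursor names, which covers counting error only. P-values measure the spread between libraries, each made from a separate pool of rats. That spread also holds differences in dissection, library preparation and sequencing. The paper states that libraries were multiplexed in sets, but the labels do not give the set of a library. Differences between sets were therefore not tested.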

How the data were processed

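Small RNA libraries were sequenced from pooled RNA of each region, sex and group. The authors trimmed reads at low-quality bases, aligned them with Bowtie to the Rn5 rat genome, quantified precursor and mature names of miRBase in Partek Flow and scaled each library. They deposited 1 normalized signal per name and library, described as RPM, and a library adds up to 1000000 over its mature names and again over its precursor names. The depth was taken from the smallest step between values. How reads matching several names were divided is not given in the sources used here. Lines sharing a name were added up (122 lines of 56 names).

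Names above 0 RPM in at least 6 of 24 libraries entered a linear model of log2(RPM + 1), fitted in R 4.3.3 by limma 3.58.1 with a trended empirical Bayes step, in 8 cells of sex and treatment, with Benjamini-Hochberg adjustment over all names. That filter also passes values under 1 read. Single names were checked by exact permutation tests, two-sided, over all 853776 divisions of the libraries within sex, in Python 3.11.15 with numpy 2.4.6 and pandas 2.3.3. Ethanol enriched and saline non-enriched libraries were set against the other libraries. Differences by ethanol or housing alone were not removed first. The p-values are therefore exact only where neither treatment had any effect. Named were, at a mean of at least 10 RPM, the 10 names with the smallest p in each direction, under 10 RPM the 2 in each direction, and of each of 15 lists the most abundant name and the one with the smallest p. Members and lists were chosen with earlier results of these data known. The calculations were tested on simulated data. Alternatives were pseudocounts, filters, median-ratio rescaling, mature names only, unlogged RPM, no moderation, array weights, no sex term, a replicate block and each library left out. The microarrays of the study were not analysed here.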

Additional observations from a re-analysis of the deposited data

Results flagged for a closer look

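The interaction of the precursor mir-6325 was lower in females than in males by 3.80 on the log2 scale (value -3.80, limma adjusted p = 0.0301), the sole name past correction for that difference, and it rests on at most 3 reads per library.

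Single libraries stood apart from the other 5 of their group in log2(RPM + 1). The saline non-enriched library M1 had miR-338-3p, an oligodendrocyte microRNA, at 5133 RPM, where the nearest library had 8270 RPM. The same library had miR-369-3p at 382 RPM, with the nearest at 324 RPM. The saline enriched library M1 had miR-351-5p at 2679 RPM, with the nearest at 3564 RPM. The ethanol enriched library M2 had mir-451, a red blood cell precursor, at 67.4 RPM, with the nearest at 32.3 RPM. The saline enriched library F3 had mir-483 at 20.8 RPM, with the nearest at 2.29 RPM, and without that library the interaction of mir-483 was -1.34, against -1.88 with it. Chance flags about 1 in 20 groups, and 5 of 184 groups of 6 libraries were marked in this way.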

How the results depend on the processing

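The interaction count at an unadjusted p under 0.05 in the ventral striatum, 24, was 12 at a mean of at least 10 RPM, 12 for mature names only, 49 with array weights and 15 with over 3 reads in at least 6 libraries (chosen after seeing the data), and 19 with the replicate block. Without single libraries it ran from 11 to 38: 11 without saline enriched F1, 14 without ethanol enriched F1 or saline non-enriched M3, 15 without saline non-enriched F2 or F3, and 38 without ethanol enriched F2. Its adjusted count was 0 in every fit with all libraries and ran from 0 to 1 without single libraries: mir-3577 (limma adjusted p = 0.0421) without ethanol enriched F2, and miR-191b (limma adjusted p = 1.2e-09) without ethanol enriched M3, a name with 1 read in 2 libraries. The females minus males count of 26 was 8 at a mean of at least 10 RPM, 15 for mature names only, 40 with array weights and 16 to 42 without single libraries: 16 without ethanol enriched F1 or ethanol non-enriched M3, 41 without ethanol enriched F2 and 42 without saline enriched F2. Its adjusted count of 1 was 0 with a pseudocount of 10 RPM, a mean of at least 10 RPM, mature names only, unlogged RPM, no moderation and array weights, and 0 to 2 without single libraries: 2 without ethanol enriched M3, 1 without ethanol enriched F3 or M1, saline enriched F2, saline non-enriched M3 or ethanol non-enriched M2, and 0 without each of the others. The amygdala count of 35 was 19 at a mean of at least 10 RPM, 21 for mature names only, and 28 to 57 without single libraries, 57 without ethanol non-enriched F3. Its adjusted count ran from 0 to 1, with mir-802 called without saline non-enriched M3. The count for the difference of regions, 31, was 20 for mature names only and 51 with array weights. Directions turned for let-7f-5p (-0.0040, turned to 0.027 with median-ratio rescaling, 0.065 with array weights), miR-192-5p (0.20, turned to -0.017 with array weights) and mir-133a (0.045, turned to -0.069 with array weights, -6.95 RPM unlogged, exact permutation p = 0.813). Left-out libraries moved let-7f-5p between -0.079 and 0.098, miR-127-3p between -0.16 and 0.035, miR-143-3p between -0.28 and 0.011, miR-146b-5p between -0.20 and 0.022, miR-181a-5p between -0.056 and 0.12, miR-204-5p between -0.037 and 0.18, miR-351-5p between -0.078 and 0.068, mir-133a between -0.39 and 0.39, and mir-148a between -0.044 and 0.15. A pseudocount of 10 RPM moved scarce names toward 0 by over 1.5 times, such as mir-183 (2.43 to 1.51), mir-17-2 (0.67 to 0.43), let-7c-2-3p (-1.16 to -0.74), miR-382-3p (-0.58 to -0.33), mir-450b-1 (-0.74 to -0.49), miR-542-5p (-0.87 to -0.58) and miR-483-3p (-2.18 to -0.51). Replicate numbers gave no consistent pairing of the ventral striatum libraries. Within sex, libraries sharing a number had correlations from -0.37 to 0.37 (16 of 36 pairs over 0.1, median 0.0018). The causes of these changes were not tested.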

Other observations

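Some names of the list that the study chose on these libraries had a housing difference mainly in saline rats. The precursor mir-1247 (47.0 RPM) had a difference of -1.33 in saline and -0.00096 in ethanol-exposed rats, an interaction of 1.33 ± 0.79 (SE). The precursor mir-653 (238 RPM), which shares an intron of the calcitonin receptor gene with mir-489, had -1.27 and -0.17, an interaction of 1.11 ± 0.79. In the amygdala the interactions were -0.13 and -1.72. These names were chosen after their values were seen, and neither had an unadjusted limma p under 0.05 in the ventral striatum.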
